A study of Oryza sativa with 6 samples.

Results

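The loci described here are 61 rice gene models that were read in grains of the drw1 mutant and had almost no counts in grains of the wild type ZH11. They were chosen by their measured counts: an identifier of the LOC_Os series, a mean of at least 1 CPM (counts divided by the library total and multiplied by 1000000) over the drw1 libraries, and at most 3 counts summed over the ZH11 libraries. Of 39217 gene models in all, 38916 carry a LOC_Os identifier, and 61 of these met the rule. None of the 301 models with another form of identifier met the same limits. The difference between drw1 and ZH11 at these loci is therefore how they were found, and it is given below as a description with no test. Of the 21893 LOC_Os loci that reached a mean of 1 CPM in drw1, 0.279% had at most 3 counts over ZH11. With the genotypes exchanged, 51 of 21490 loci (0.237%) met the same limits.

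Whole grains of drw1, the mutant, and of ZH11, a japonica cultivar that served as wild type, were collected 3 days after pollination from paddy-grown plants. Each genotype has 3 RNA-seq libraries made from total RNA. The sources used here give neither the nature of the drw1 mutation, nor how it was made, nor whether the mutant otherwise shares the ZH11 background. The libraries are numbered, but their plants are not described, so the p-values below cover the spread from library to library only, and that spread may be technical. The mutant's columns carry the prefix C4 and were assigned to drw1 because the series holds no other genotype, and every direction below rests on this assignment. The mutated gene could not be looked up, because no source used here pairs gene names with identifiers, and for the same reason the tissue was not checked against marker genes.

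A rice grain at this stage holds young endosperm and a very small embryo inside maternal tissues, the nucellus, seed coat and green pericarp. In such a bulk sample, fewer cells of a type and less RNA per cell cannot be told apart. Genes read in 1 rice line and not in another are a known class. They include genes that are switched on in only 1 line and genes that only some cultivars carry, and in these counts the kinds cannot be told apart. A count of 0 says only that no read was assigned to the model. A LOC_Os identifier names the chromosome and then the order of the locus along it, mostly in steps of 10, so position is given here as chromosome and order. No coordinates, gene names or functions of the 61 loci were available, and none is given.

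Library totals ran from 16440923 to 17270099 counts in drw1 and from 15582373 to 24147797 in ZH11. In drw1, 1 CPM corresponded to 16.4 to 17.3 counts. The limit of 3 counts over ZH11 corresponded to 0.0505 CPM. Had a member been read in ZH11 at its drw1 level, between 60.4 and 10644 counts (median 113) would have been found over the ZH11 libraries, so the depth was enough to see such a level for every member. Intervals and floors cover counting error only.

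Together the 61 loci held 402, 400.0 and 413 CPM in the drw1 libraries, against 1.02, 1.16 and 0.963 CPM in the ZH11 libraries. This was 20324 counts over drw1 and 63 counts over ZH11. The sum was 405 ± 6.87 CPM in drw1 and 1.05 ± 0.102 CPM in ZH11 (SD, n = 3 each). Most of the sum came from few loci. LOC_Os03g02470 alone held 44.2% of the members' drw1 counts, the 5 most abundant loci held 65.6% and the 10 most abundant held 75.8%. The other loci were near the lower limit of the rule: 34 of 61 had a mean under 2 CPM, and the median over all 61 was 1.90 CPM. Among the 21893 loci at 1 CPM or more in drw1, the median member lay at the percentile 7.17.

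**Figure D1:**
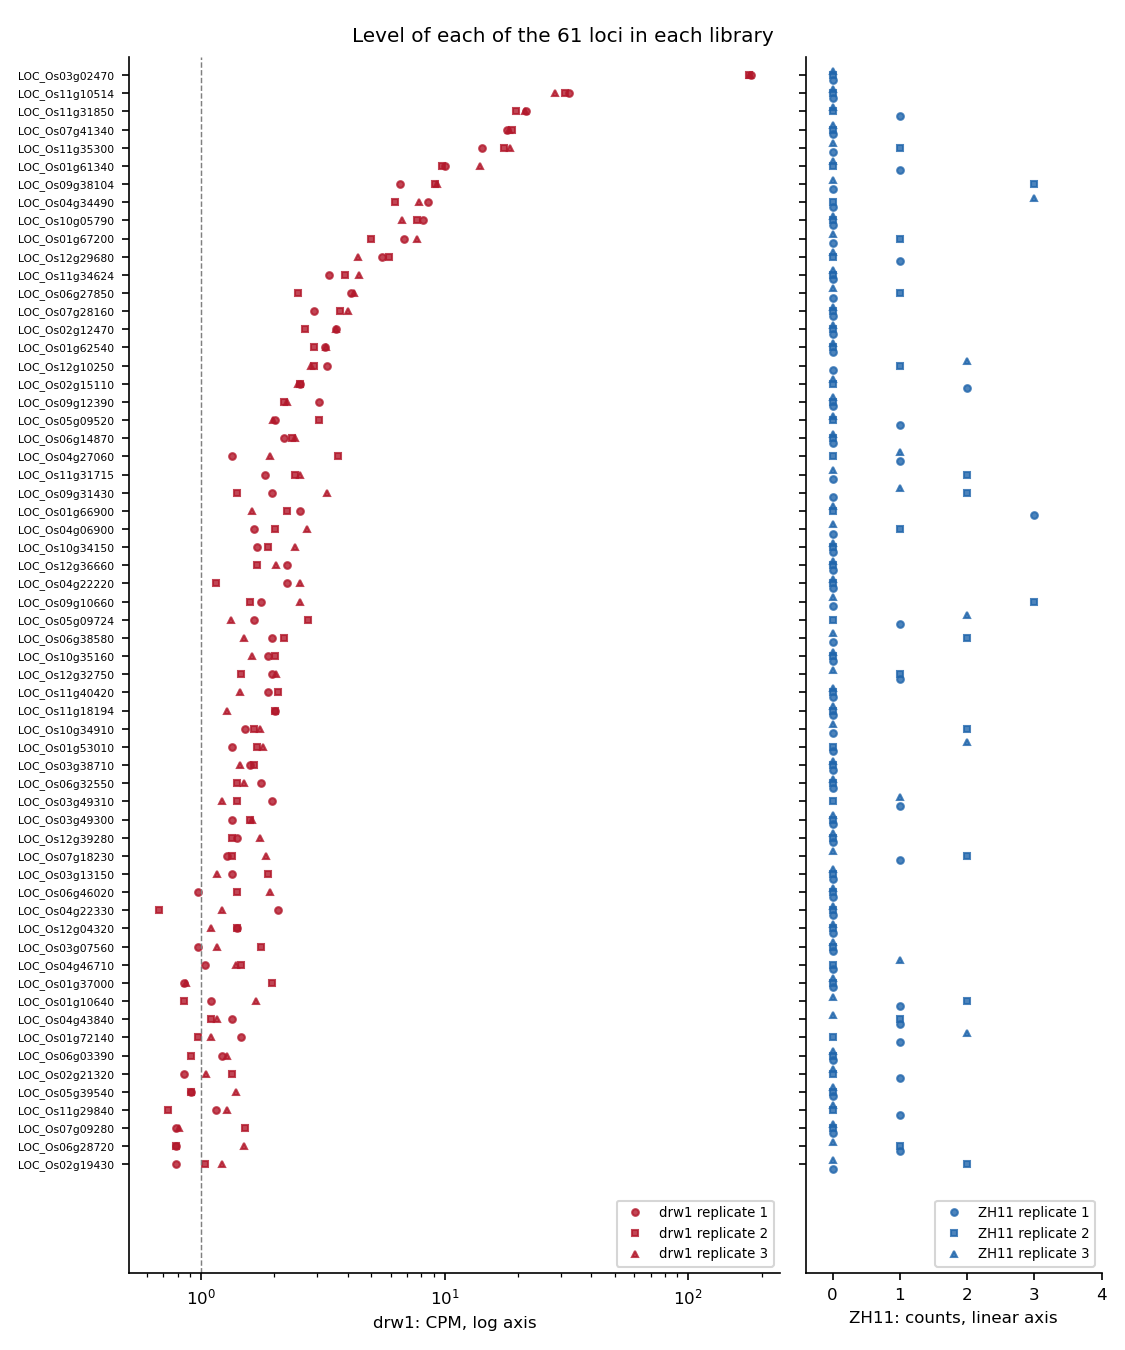
Level of each of the 61 loci in each library, sorted by mean level in drw1. Left, CPM in the 3 drw1 libraries on a log axis, with the limit of 1 CPM dashed; right, counts in the 3 ZH11 libraries on a linear axis. LOC_Os03g02470 lies near 179 CPM and the other loci below 35, while no ZH11 library has more than 3 counts at any locus.

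LOC_Os03g02470 was the most abundant member. It had 2966, 2911 and 3107 counts in the drw1 libraries (180, 177 and 179.9 CPM) and 0 in each ZH11 library. Its coefficient of variation over the drw1 libraries was 1.04%, the lowest of all 61 loci, and it ranked 838 among all LOC_Os loci in drw1. It was at least 3548-fold higher in drw1 against a floor of 3 counts over ZH11. No other member came near this level.

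LOC_Os11g10514 followed with 532, 515 and 490 counts in drw1 and 0 in each ZH11 library, at least 607-fold higher. LOC_Os11g31850 had 353, 323 and 369 counts in drw1, against 1, 0 and 0 in ZH11. LOC_Os07g41340 had 297, 311 and 317 counts in drw1 and 0 in each ZH11 library, at least 365-fold higher. These 3 loci had between 18.4 and 30.7 CPM in drw1, with little difference between libraries. LOC_Os11g35300 had 234, 287 and 320 counts in drw1 and 0, 1 and 0 in ZH11. LOC_Os01g61340 had 165, 161 and 241 counts in drw1 and 1, 0 and 0 in ZH11. In both of these loci drw1 replicate 3 was highest. The last 4 of the 10 most abundant loci were LOC_Os09g38104, LOC_Os04g34490, LOC_Os10g05790 and LOC_Os01g67200, with means of 8.32, 7.55, 7.51 and 6.50 CPM in drw1. Of these, LOC_Os10g05790 had 0 counts over ZH11, LOC_Os01g67200 had 1, and LOC_Os09g38104 and LOC_Os04g34490 had 3 each.

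Levels of different loci were compared per length, as TPM (counts per kilobase scaled to a common total). On this scale the order below the first locus changed. LOC_Os03g02470 remained highest at 217 ± 3.50 TPM in drw1 (SD, n = 3). LOC_Os09g38104, the shortest member with 225 bases, followed at 54.7 ± 9.49 TPM. LOC_Os01g61340 had 48.6 ± 9.37 TPM, LOC_Os11g31850 had 46.7 ± 2.25 TPM and LOC_Os11g10514 had 43.8 ± 3.55 TPM. The ranges of these 4 loci over the drw1 libraries overlap, so their order is not resolved. The median member had 3.53 TPM in drw1.

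In ZH11, 29 of the 61 loci had no count in any library. A single count over ZH11 was found for 11 loci, 2 counts for 11 and 3 counts for 10. Of the 32 loci with a count, 21 had it in 1 library only and 11 in 2 libraries, and none had a count in all 3. Members with a count numbered 17, 17 and 9 in ZH11 replicates 1, 2 and 3. The 29 loci at 0 were at least 20.5-fold to 3548-fold higher in drw1 against the floor of 3 counts over ZH11, with a median bound of 35.5. For the other 32 the ratio of drw1 to ZH11 ran from 23.3 to 1238, and the lower ends of the 95% exact binomial intervals ran from 7.59 to 222. Loci at 0 were found at every level: 18 of the 34 loci under 2 CPM and 4 of the 11 loci at 5 CPM or more had no count over ZH11.

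A count of 0 over ZH11 was more frequent than any single count from 1 to 10. Among loci at 1 CPM or more in drw1, 29 had 0 counts over ZH11, 32 had 1 to 3 and 103 had 4 to 10. In the exchanged direction the class at 0 did not stand out: among loci at 1 CPM or more in ZH11, 11 had 0 counts over drw1, 40 had 1 to 3 and 94 had 4 to 10. The difference between these distributions was not tested. Above 0, the limit of 3 counts cut through the low counts. Among loci at 1 CPM or more in drw1, 11, 11, 10 and 17 had 1, 2, 3 and 4 counts over ZH11.

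**Figure D2:**
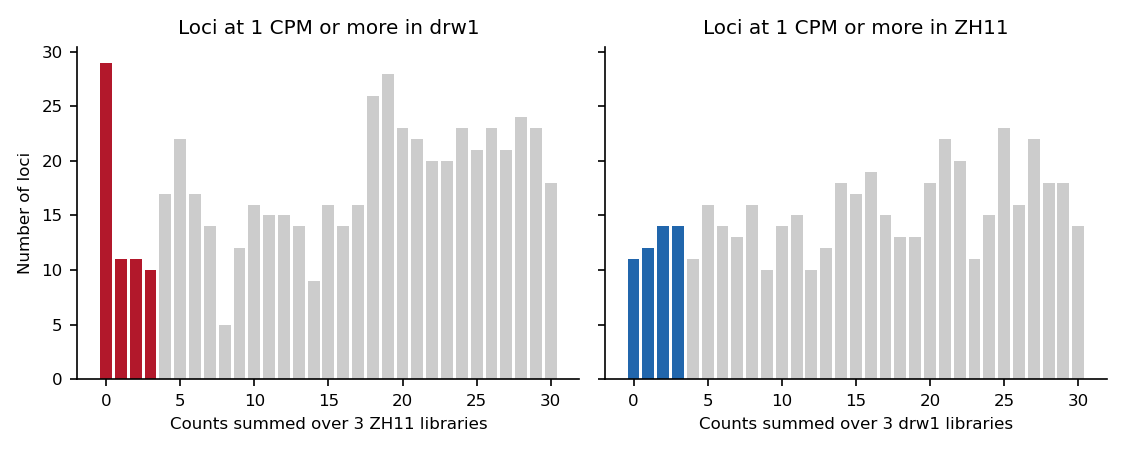
Number of loci (vertical axis) by counts summed over the 3 libraries of the other genotype (horizontal axis, 0 to 30), for loci at 1 CPM or more in drw1 (left) and in ZH11 (right). Coloured bars are the loci within the limit of 3 counts; the bar at 0 counts holds 29 loci on the left and 11 on the right.

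Loci just inside and just outside the limits had similar values. The 10 members with exactly 3 counts over ZH11 had drw1 means of 1.18 to 8.32 CPM, and besides LOC_Os09g38104 and LOC_Os04g34490 they were LOC_Os01g10640, LOC_Os01g66900, LOC_Os01g72140, LOC_Os05g09724, LOC_Os07g18230, LOC_Os09g10660, LOC_Os09g31430 and LOC_Os12g10250. Among loci at 1 CPM or more in drw1, 17 were left out with 4 counts over ZH11. The 3 highest of them were LOC_Os01g52060, LOC_Os07g02920 and LOC_Os04g28780, at 3.66, 3.58 and 3.54 CPM in drw1. At the limit of 1 CPM, LOC_Os02g19430, LOC_Os06g28720 and LOC_Os07g09280 were the lowest members, with 1.01, 1.03 and 1.04 CPM in drw1. LOC_Os06g19550, LOC_Os03g01870 and LOC_Os03g13160 were the highest of those that fell short, with 0.996, 0.992 and 0.975 CPM. LOC_Os03g13160 had 0 counts over ZH11 and lies next to the member LOC_Os03g13150.

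The spread between drw1 libraries was about the same at these loci as at other loci in the same range of levels. The median coefficient of variation over the 3 drw1 libraries was 18.2% for all members. The theoretical value for counting error, 1 over the root of the mean count, had a median of 17.8%. An estimate from 3 libraries is not the same measure, so whether the spread exceeded counting error was not tested. Restricted to 1 to 4 CPM, the median coefficient of variation was 20.01% for 50 members and 19.3% for 3810 other loci. Within this range the members were lower, with a median of 1.70 CPM in drw1 against 2.15 CPM. Every member had a count in every drw1 library, the lowest being 11, and 48 of 61 reached 1 CPM in each of them. The most variable were LOC_Os04g22330 with 34, 11 and 21 counts, LOC_Os04g27060 with 22, 60 and 33 counts and LOC_Os01g37000 with 14, 32 and 15 counts in drw1 replicates 1, 2 and 3. All 3 are low loci, and a different library is highest in the first than in the other two. Replicate 3 was the highest of the drw1 libraries for 29 of 61 members. At 1 to 4 CPM this was 25 of 50 members, against 31.3% of other loci. The cause of this was not tested.

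The rule was also applied to 2 libraries of each genotype, and the loci it chose were read in the libraries it had not used. Without the libraries numbered 1 it chose 103 loci, without those numbered 2 it chose 115 and without those numbered 3 it chose 92, more than 61 because 3 counts are a looser limit over 2 ZH11 libraries. In the drw1 library left out, 84 of 103, 91 of 115 and 79 of 92 of these loci had at least 1 CPM, and none was at 0. In the ZH11 library left out, 84, 91 and 85 of them had at most 3 counts, and 44, 46 and 51 had none. The highest count there was 24, which was 0.994 CPM. All loci at 1 CPM or more in the same drw1 libraries served as background. Of these, 98.1% to 98.4% had at least 1 CPM in the drw1 library left out, a higher share than among the chosen loci. In the ZH11 library left out, 0.767% to 1.25% of the background loci had at most 3 counts. Leaving out ZH11 replicate 1, 2 or 3 alone gave 102, 111 and 92 loci, and leaving out drw1 replicate 1, 2 or 3 gave 62, 65 and 61. Leaving out a ZH11 library can only raise the number, since the limit on summed counts stays the same, so these 2 sets of numbers are not comparable.

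The gene models were short. Their median length was 888 bases, against 1674 bases for all loci at 1 CPM or more in drw1 and 1201 bases for all LOC_Os rows. Since low loci in general were shorter, the comparison was repeated at 1 to 4 CPM. There the median was 997 bases for 50 members and 1257 bases for 3810 other loci. The match in level was not exact, with medians of 1.70 and 2.15 CPM in drw1. Models under 500 bases made up 26.0% of these members and 12.2% of the other loci. Models over 2000 bases were 6 of the 50 members and 21.4% of the other loci. The 51 loci read in ZH11 only were also short, with a median of 732 bases. These differences are descriptions and were not tested.

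The shortest members were LOC_Os09g38104 with 225 bases, LOC_Os01g67200 with 261 and LOC_Os11g31715 with 276. The longest were LOC_Os11g40420 with 4769 bases, LOC_Os11g18194 with 2642 and LOC_Os02g21320 with 2349. The long loci were all low, between 1.08 and 1.80 CPM in drw1. The share of models whose length is a multiple of 3 was 68.9% for members, 47.8% for loci at 1 CPM or more in drw1 and 65.7% for all LOC_Os rows. At 1 to 4 CPM it was 31 of 50 members and 60.3% of other loci. It was 79.3% for the 29 members with 0 counts over ZH11 and 59.4% for the other 32. Identifiers that do not end in 0, as in LOC_Os11g10514, made up 9.84% of members and 8.52% of all.

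**Figure D3:**
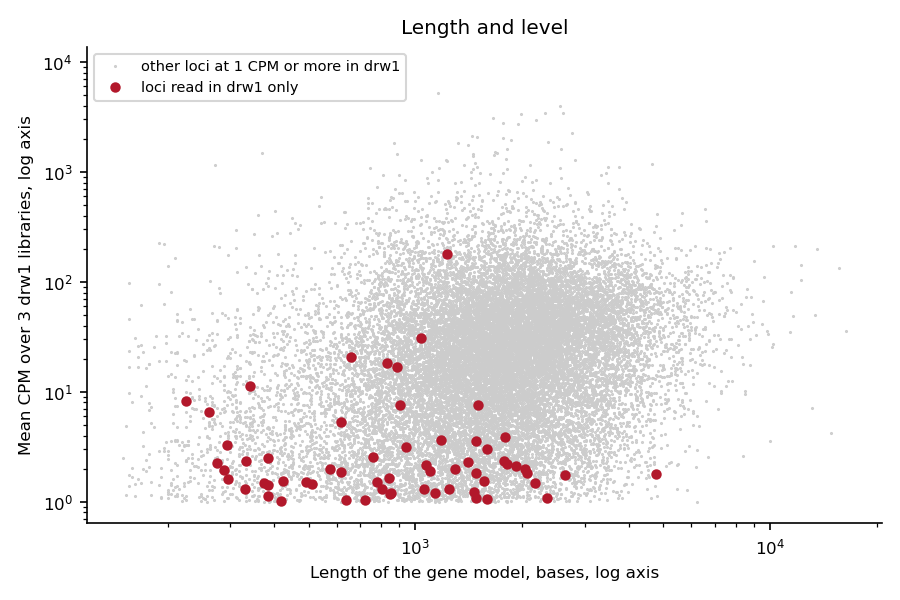
Mean CPM over the 3 drw1 libraries against length of the gene model in bases, both on log axes. Red points are the 61 loci read in drw1 only and grey points the other loci at 1 CPM or more in drw1; most members lie along the lower edge, and 16 of them are shorter than 500 bases.

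By their identifiers, the 61 loci were spread over 11 of the 12 chromosomes. Chromosomes 1 and 11 held 8 each, chromosomes 4 and 6 held 7 each, chromosomes 3 and 12 held 6 each, chromosomes 2, 7, 9 and 10 held 4 each and chromosome 5 held 3. None of the 1448 loci at 1 CPM or more on chromosome 8 was a member. As a share of such loci, members were most frequent on chromosome 11 (0.679% of 1178) and chromosome 12 (0.490% of 1224), and on the other chromosomes with members the share lay between 0.154% and 0.406%. Along the chromosomes, 16 members fell in the part of the identifier order nearest its start, 22 in the part just past its middle, and 12 and 11 in the parts before the middle and at the end, with the order cut into 4 equal parts. Of the 51 loci read in ZH11 only, 11 were on chromosome 5 and 9 each on chromosomes 1 and 7, where members numbered 3, 8 and 4. No test was made of these counts.

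The median distance to the nearest other member on the same chromosome was 209 loci, and 4 of 61 members had another within 10 loci. Members were 61 of 38916 LOC_Os loci, so wide spacing follows from their small number. Whether they lay closer or farther apart than other loci drawn in that number was not tested. LOC_Os03g49300 and LOC_Os03g49310 are direct neighbours. LOC_Os03g49300 had 22, 26 and 28 counts in drw1 and 0 in each ZH11 library, and LOC_Os03g49310 had 32, 23 and 21 counts in drw1 against 1, 0 and 1 in ZH11. Per length, LOC_Os03g49300 had 4.54 ± 0.414 TPM and LOC_Os03g49310 2.89 ± 0.758 TPM in drw1 (SD, n = 3), and their drw1 libraries do not overlap. LOC_Os11g31715 and LOC_Os11g31850 lie 6 loci apart, with 12.1 ± 1.96 and 46.7 ± 2.25 TPM in drw1 (SD, n = 3). A further pair lay 11 loci apart, LOC_Os04g22220 and LOC_Os04g22330, and another 18 loci apart, LOC_Os05g09520 and LOC_Os05g09724. At most 2 members stood in a row. This spacing depends on the limits: at 0.5 CPM or more in drw1, 26 of 163 loci had another within 10 loci, and without ZH11 replicate 1, 2 or 3 the loci with another nearby numbered 9, 16 and 10. Beside the members, 5 of the 120 nearest loci had at most 3 counts over ZH11 and 0.5 to 1 CPM in drw1. Lower ones were not counted, and these 5 missed the rule by their level, with 0.677 to 0.975 CPM. They were LOC_Os03g13160, LOC_Os04g22230, LOC_Os04g22340, LOC_Os07g09270 and LOC_Os11g34610, picked after their values were seen. Among all 38916 LOC_Os loci, 163 met the ZH11 limit at 0.5 CPM or more in drw1, and 61 of these were the members. The difference in frequency was not tested.

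**Figure D4:**
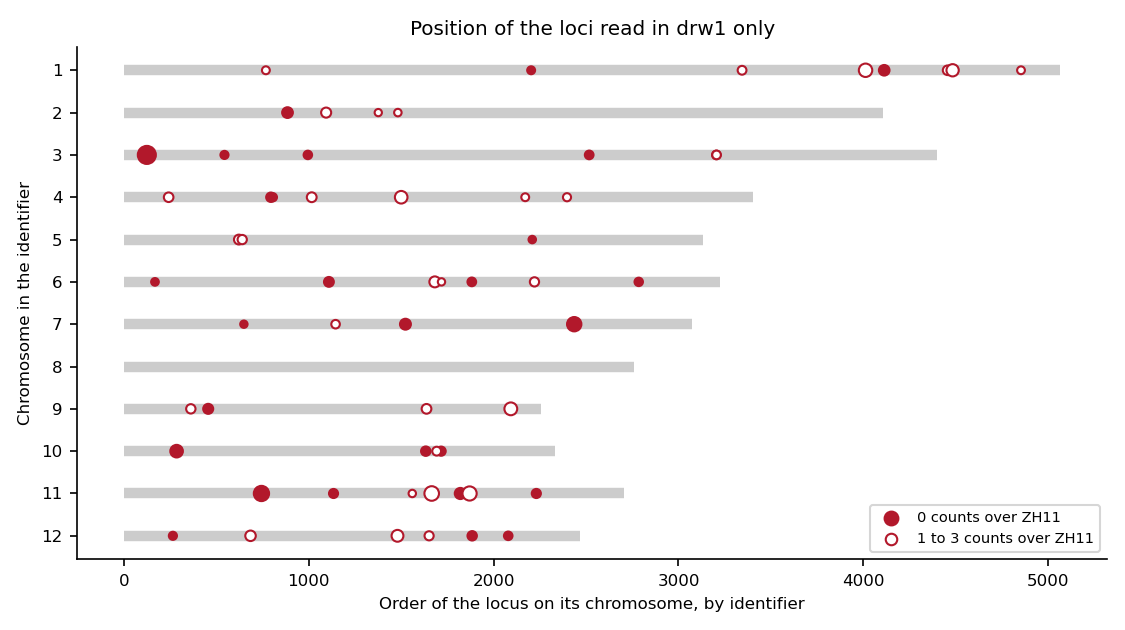
Order of each member among the loci of its chromosome by identifier (horizontal axis), by chromosome (vertical axis); grey bars span all loci of the table. Filled circles have 0 counts over ZH11 and white ones 1 to 3, and the circle grows with the log of the mean CPM in drw1. Chromosome 8 has no member, and the circles of neighbours such as LOC_Os03g49300 and LOC_Os03g49310 overlap.

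The loci beside the members were not chosen by the rule and could be tested. Across all 23395 genes tested, the quasi-likelihood test of edgeR (Benjamini-Hochberg threshold 0.05) called 35.7% higher and 34.4% lower in drw1, 12.7% higher by 2-fold or more and 14.6% lower by 2-fold or more. Scaled by library totals in place of TMM (a trimmed mean of log ratios), 44.3% were higher and 28.01% lower. The members have 120 nearest loci that are not members, on either side in identifier order, of which 60 were expressed enough to be tested. Of these 60, 33 (55.0%) rose and 18 fell in drw1. Changes of 2-fold or more were rises in 21 and falls in 7 (11.7%). The median log2 fold change of the 60 was 0.29, against 0.03 over all other LOC_Os loci tested. No test was made of the 60 loci as a list, and 28 of the 120 (23.3%) had no count in any library, against 21.2% of all other LOC_Os loci.

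From the second to the fifth locus on each side, 91 of 264 tested loci (34.5%) rose and 98 (37.1%) fell, with a median log2 fold change of 0.00. Rises of 2-fold or more numbered 39 (14.8%) and falls 49 (18.6%). After the member in identifier order, 20 of 32 tested loci at a distance of 1, 19 of 34 at 2 and 12 of 36 at 3 rose. Before it, 13 of 28 at a distance of 1, 11 of 34 at 2 and 8 of 34 at 3 rose. At a distance of 3, 17 loci fell on each side. No difference between sides or distances was tested. The loci beside the 51 models read in ZH11 only were counted in the same way: of 54 tested, 21 (38.9%) fell and 15 (27.8%) rose. Beside the members with 0 counts over ZH11, 16 of 25 tested loci (64.0%) rose and 6 fell, and 0 fell by 2-fold or more. Beside the members with 1 to 3 counts, 17 of 35 (48.6%) rose and 12 fell, 7 of them by 2-fold or more. Whether models beside each other share reads is unknown, since neither the strand setting nor the treatment of overlapping models is stated, and its part in these counts was not tested.

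**Figure D5:**
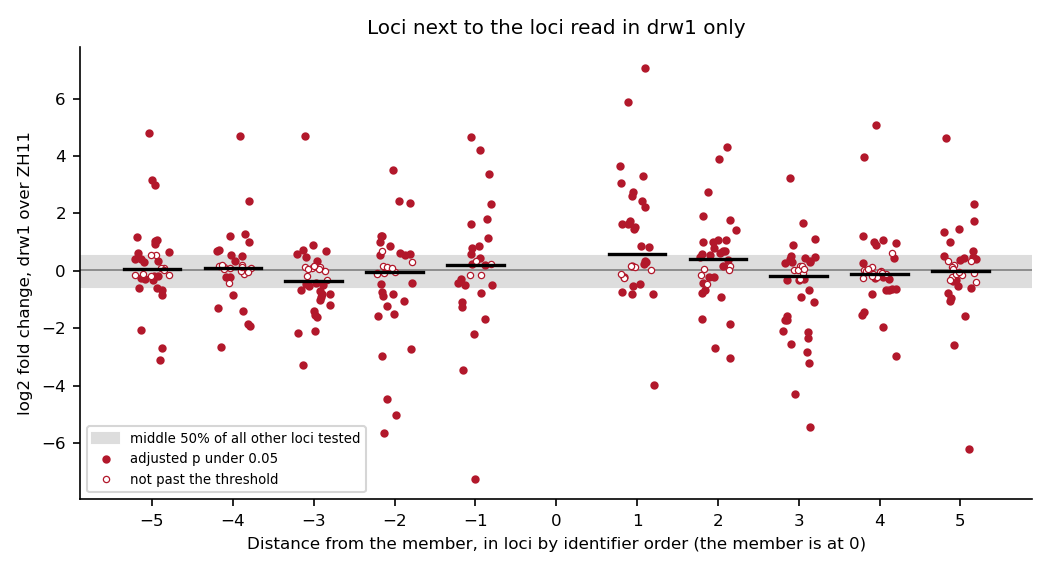
Log2 fold change of tested loci (drw1 over ZH11, vertical axis) by distance from the member in identifier order (horizontal axis, −5 to 5; the member itself is not drawn). Filled points passed the edgeR threshold and open points did not. Black lines are medians at each distance, and the grey band spans the lower to the upper quartile of all other loci tested. The median is 0.22 at -1, -0.05 at -2 and -0.37 at -3, and 0.58 at 1, 0.42 at 2 and -0.17 at 3. The points of loci with 0 counts in a genotype are fitted values, not bounds.

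Within 5 loci of a member, 18 of 324 tested loci (5.56%) were higher and 13 (4.01%) lower by 8-fold or more. Of the 60 nearest loci, 8 (13.3%) were higher and 3 lower by that much. Over all other LOC_Os loci tested, 1.53% were higher and 1.82% lower by 8-fold or more. Adjusted p-values below are Benjamini-Hochberg values of the edgeR test. LOC_Os07g41350, beside LOC_Os07g41340, had 316, 306 and 346 counts in drw1 and 3, 6 and 8 in ZH11, and its log2 fold change was 5.88 with SE 0.22 (edgeR, adjusted p = 2.2e-13). The member and this neighbour had almost the same counts in each drw1 library, while LOC_Os07g41330 on the member's other side had 128 ± 2.54 CPM in drw1 and 100.2 ± 8.32 CPM in ZH11 (SD, n = 3 each). LOC_Os11g10520, beside LOC_Os11g10514, had 5121, 5112 and 6048 counts in drw1, against 478, 532 and 360 in ZH11, and its log2 fold change was 3.65 with SE 0.08 (edgeR, adjusted p = 2.3e-16). On the other side, LOC_Os11g10480 had 2719 ± 88.4 CPM in drw1 and 792 ± 27.0 CPM in ZH11 (SD, n = 3 each). LOC_Os11g10514 thus lay between abundant loci that both rose.

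LOC_Os03g13150, with 22, 31 and 20 counts in drw1 and 0 in each ZH11 library, also lay between risen loci. LOC_Os03g13140 had 330, 312 and 417 counts in drw1, against 22, 14 and 8 in ZH11, and its log2 fold change was 4.66 with SE 0.21 (edgeR, adjusted p = 1.9e-12). LOC_Os03g13160, just outside the rule, had 20, 10 and 19 counts in drw1 and 0 in each ZH11 library, at least 19.4-fold higher against the floor. The remaining rises of 8-fold or more were in LOC_Os11g35310, LOC_Os09g38110, LOC_Os06g46010 and LOC_Os02g21310, with log2 fold changes of 3.29, 3.05, 4.19 and 3.36. Further from a member, LOC_Os06g03520 had a log2 fold change of 5.08 and lies 4 loci from LOC_Os06g03390. LOC_Os03g49270, which lies 3 loci from LOC_Os03g49300, had 170, 134 and 220 counts in drw1, against 6, 9 and 6 in ZH11.

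Of the 13 falls of 8-fold or more, 3 were in nearest loci. LOC_Os02g19420 had 0 counts in each drw1 library and 16, 20 and 21 in ZH11, at least 16.0-fold higher in ZH11 against a floor of 3 counts over drw1. Its neighbour LOC_Os02g19430, a member, had 13, 17 and 21 counts in drw1, against 0, 2 and 0 in ZH11. LOC_Os04g34510 had 2, 0 and 4 counts in drw1, against 37, 51 and 20 in ZH11, beside LOC_Os04g34490. LOC_Os09g31420 had 2, 2 and 1 counts in drw1, against 18, 29 and 16 in ZH11, beside LOC_Os09g31430. The directions in these pairs follow from how both loci were picked. Among the other 10, LOC_Os06g28820 had 0, 1 and 0 counts in drw1, against 27, 45 and 35 in ZH11, and lies 5 loci from LOC_Os06g28720. LOC_Os02g15090, 2 loci before the member LOC_Os02g15110, had 2, 3 and 1 counts in drw1 against 105, 148 and 89 in ZH11. LOC_Os02g15150, 3 loci after it, had 10, 11 and 11 counts in drw1 against 468, 601 and 423 in ZH11. The nearest locus after this member, LOC_Os02g15120, rose instead, with 118, 143 and 140 counts in drw1 against 34, 34 and 11 in ZH11. The nearest locus before it, LOC_Os02g15100, had no count in any library.

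Around the most abundant member, 1 flank was higher and the other lower in drw1. Beside LOC_Os03g02470, LOC_Os03g02460 had 820, 776 and 734 counts in drw1, against 233, 316 and 158 in ZH11, and its log2 fold change was 1.82 with SE 0.10 (edgeR, adjusted p = 5.0e-11). LOC_Os03g02480 on the other side had 370, 310 and 323 counts in drw1 and 550, 729 and 511 in ZH11, and its log2 fold change was -0.75 with SE 0.10 (edgeR, adjusted p = 2.3e-06). Both flanks had counts in every ZH11 library, unlike the member between them. Beside LOC_Os11g31850, LOC_Os11g31820 rose with a log2 fold change of 2.32 and LOC_Os11g31880 with 0.88, and both had counts in all ZH11 libraries.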

How the data were processed

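The authors deposited 1 table of read counts per gene model, not normalized per the file headers and its values, with the length of each model in bases as another column. The submitters' processing notes name the tools fastp, HISAT2, featureCounts and DESeq; versions, genome build, annotation, strand setting and how multiply matching reads were treated were not given in the sources used here, so counts of overlapping or near-identical models are uncertain. CPM was computed from column totals, and TPM from counts and lengths. Genotypes were compared over all genes with edgeR 4.0.16 in R 4.3.3 (quasi-likelihood test, TMM scaling, default filter on low counts, genotype as the only factor, two-sided, Benjamini-Hochberg adjustment, threshold 0.05). All 61 members passed that filter, and none of their p-values is used. Standard errors of log2 fold changes are approximate (log2 fold change divided by the root of the F statistic). The fit was first checked on simulated counts. Neighbours were taken in identifier order; 98.8% of consecutive LOC_Os rows of the table follow that order. None of the identifiers is in the reference gene table (RefSeq, assembly ASM3414082v1). Loci were named by rank (level, length, variability, closeness, nearness to a limit, and neighbours past 8-fold), and among the neighbours past 8-fold the nearest ones are named, with a few of the largest further ones. LOC_Os11g10480, LOC_Os07g41330, LOC_Os03g02460, LOC_Os03g02480, LOC_Os11g31820 and LOC_Os11g31880, as flanks of abundant members, and the pairs 11 and 18 loci apart were named after their values were seen. LOC_Os02g15100 and LOC_Os02g15120, the loci nearest to LOC_Os02g15110, were also named after their values were seen. The members and lists were chosen with earlier results of these data known. Alternatives were other limits, scalings, tests and neighbour distances, thinning, a replicate block and leaving out each library.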

Additional observations from a re-analysis of the deposited data

How the results depend on the processing

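The number of loci read in drw1 only followed its limits. It was 29 with at most 0 counts over ZH11, 164 with at most 10, 163 at a mean of 0.5 CPM or more and 27 at 2 CPM or more, by construction of the limits. It was 57 with TMM-scaled CPM, 48 with 1 CPM in every drw1 library, 84 after thinning to the smallest library, of which 59 were among the 61, and 61 to 111 without 1 library, where the same 3 counts are spread over fewer ZH11 libraries. Members with another nearby numbered 0 and 21 with these limits on ZH11 counts, 26 and 2 with these limits on CPM, 8 after thinning, 2 within 5 loci, 8 within 20 loci and 4 to 16 without 1 library. Calls over all genes numbered 15243 to 16522 without 1 library and 15505 with the replicate block. The block left 32 nearest loci higher and 18 lower; nothing in the labels says what a shared number means, and the deviations of libraries with the same number correlated at -0.12, 0.02 and -0.10 across genes. Up to 5 loci on each side, 124 were higher, 116 lower and 60 higher by 2-fold or more, since more loci are counted. Over all fits, nearest loci called higher by 2-fold or more made up 32.6% to 41.8%, against 11.1% to 15.8% of all genes, a result and comparison added after seeing the data, as was the order of table rows (34 higher, 17 lower). Library totals in place of TMM moved the median of all genes to 0.19 on the log2 scale, and 60.0% of nearest loci were then higher, against 44.3% of all genes. The 31 neighbours past 8-fold kept their call in all 341 cases over the alternative fits. Depth sets a floor: for a locus at 0 in ZH11 it was taken as 3 counts, or 0.0505 CPM over the genotype. A locus with 0 counts can by counting error lie above this floor.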
